A study of Mus musculus with 4 samples.

Results

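The HIF and ARNT family with its oxygen sensors was followed in heart muscle cells, as 10 genes of the 20886 that could be named on the array. The genes are the 3 hypoxia-inducible factor alpha subunits Hif1a, Epas1 and Hif3a, the partner subunits Arnt and Arnt2, the aryl hydrocarbon receptor Ahr, the oxygen-sensing prolyl hydroxylases Egln1, Egln2 and Egln3, and Vhl. They were chosen by name as a family, with their doxycycline against PBS values on these same arrays already known, so their differences are given as a description with no test. Each gene had a probe, 6 had more than 1, and 18 of the 39429 probes belonged to the family. Of these 18, 15 stood well above background on 2 or more of the 4 arrays and were kept in the fit. All 10 genes had a kept probe, Arnt2 through the PBS arrays alone.

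Doxycycline arrays 1 and 2 carried RNA of adult cardiomyocytes from 10-week-old male mice injected intraperitoneally with doxycycline for 2 days, and PBS arrays 1 and 2 RNA of cardiomyocytes from mice of the same age and sex given PBS for 2 days. Mice of both groups came from a cross of an αMHC promoter-driven CRE line with a tetO line for the reprogramming factors OSKM, named in full in the series as Yamanaka's factors (Pou5f1, Sox2, Klf4 and Myc). αMHC is the promoter of the heart muscle myosin gene Myh6, so the factors are directed to cells that use it. No array came from mice given doxycycline without the factors, so drug and factors cannot be told apart, and the labels do not say how many mice stand behind an array, nor that arrays come from separate mice.

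Hypoxia-inducible factors are pairs of basic helix-loop-helix PAS proteins. An alpha subunit is made all the time, and while oxygen is present an EGLN enzyme hydroxylates it on prolines, VHL binds the hydroxylated form, and the protein is destroyed. When oxygen or EGLN activity falls, the alpha subunit persists, pairs with ARNT and binds short hypoxia response elements beside genes of glycolysis, vessel growth and mitochondrial turnover. The aryl hydrocarbon receptor also pairs with ARNT, after binding a ligand. Much of this control acts on protein, and the arrays measured RNA alone.

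Promoter sequences are shown for 4 genes: Hif3a and Arnt2, which had the highest and the lowest difference of the family, and Egln1 and Egln3, which in mammals are themselves known to be induced by HIF. They are RefSeq sequences of GRCm38.p6, each from 250 bases before to 50 bases after an annotated gene start, written 5′ to 3′ along the gene. Capitals mark the core of the hypoxia response element, searched as ACGTG and GCGTG on both strands.
Hif3a, chr7:17062378-17062677, minus strand: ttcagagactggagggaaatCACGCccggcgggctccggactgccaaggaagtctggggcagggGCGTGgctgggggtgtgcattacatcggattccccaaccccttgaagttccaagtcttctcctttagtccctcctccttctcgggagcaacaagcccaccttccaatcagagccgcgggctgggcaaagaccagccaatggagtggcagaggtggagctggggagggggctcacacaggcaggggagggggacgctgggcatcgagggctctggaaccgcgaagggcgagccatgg
Arnt2, chr7:84409989-84410288, minus strand: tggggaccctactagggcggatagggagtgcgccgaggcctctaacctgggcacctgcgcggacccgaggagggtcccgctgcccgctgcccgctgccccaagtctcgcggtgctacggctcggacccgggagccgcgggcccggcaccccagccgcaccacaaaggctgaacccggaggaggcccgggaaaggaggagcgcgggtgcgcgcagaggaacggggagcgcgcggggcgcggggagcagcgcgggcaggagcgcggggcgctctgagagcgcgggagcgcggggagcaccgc
Egln1, chr8:124949205-124949504, minus strand: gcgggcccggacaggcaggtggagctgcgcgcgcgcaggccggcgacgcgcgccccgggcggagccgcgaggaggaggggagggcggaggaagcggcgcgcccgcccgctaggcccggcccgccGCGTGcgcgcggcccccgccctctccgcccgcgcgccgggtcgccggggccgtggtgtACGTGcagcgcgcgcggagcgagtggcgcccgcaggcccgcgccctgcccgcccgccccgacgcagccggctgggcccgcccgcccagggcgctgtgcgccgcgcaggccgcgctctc
Egln3, chr12:54203825-54204124, minus strand: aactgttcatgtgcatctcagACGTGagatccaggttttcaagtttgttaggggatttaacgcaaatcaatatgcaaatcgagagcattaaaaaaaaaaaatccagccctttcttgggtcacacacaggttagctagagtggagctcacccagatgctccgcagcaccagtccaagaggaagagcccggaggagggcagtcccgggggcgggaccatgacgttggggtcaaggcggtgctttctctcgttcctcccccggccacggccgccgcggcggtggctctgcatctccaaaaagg

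Of the family, 8 genes matched the promoter table, with 9 promoters, and Epas1 and Ahr were not matched. The Hif3a promoter held 2 core matches, Egln1 held 2 and Egln3 held 1, while Arnt2 held 0. At least 1 match stood in 7 of the 9 promoters, or in 6 of the 8 genes, against 43.8% of all 32851 promoters in the table. The longer core of the aryl hydrocarbon receptor's element, TNGCGTG, which contains GCGTG, stood in 1 of the 9, a promoter of Egln2, against 5.07% of all. A CACGTG holds the shorter core on both strands and counted as 2 matches. The 9 promoters ranged from 49.3% to 86.0% G and C, with a median of 52.7% over all promoters, and the cores contain CG, so matches depend on base composition. A match is a run of letters and was not tested as a binding site.

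Levels below are the log2 of the processed signal relative to the 75th percentile of an array's spots, which is 0 on this scale, and differences are doxycycline minus PBS with the standard error (SE, n = 2 per group) of a limma fit over 20092 probes. The 75th percentile itself was 248 and 193 on the doxycycline arrays and 112 and 171 on the PBS arrays, 50.6% to 51.8% of spots were well above background, and no spot was saturated. PBS array 1 stood apart, with correlations across kept probes of 0.922 to 0.944 with the other arrays, which correlated at 0.957 to 0.975 among themselves. It carried the highest summed signal of endothelial, fibroblast, mural, macrophage and red cell markers. For this reason the family's differences and the list medians are also given without PBS array 1, as are single list genes where that array moves them by over 1.5 times. All 12 heart muscle markers were well above background, with a summed signal of 3398 and 4116 times the 75th percentile on the doxycycline arrays, against 4476 and 5092 on the PBS arrays. The brightest markers dominate such a sum. Of the 12, 8 lay above PBS on average and 4 below, where 45.2% of all genes lay above. Their median difference was 0.07, and -0.39 without PBS array 1. Of the probes named for the introduced factors, that of Myc read 1.77 and -0.49 on the doxycycline arrays, against -2.34 and -3.21 on the PBS arrays. Klf4 differed by -0.28, Pou5f1 stood well above background on doxycycline array 1 alone and Sox2 on none of the 4 arrays. Whether these probes read the introduced copies, the mouse's own genes or both is not known.

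**Figure D1:**
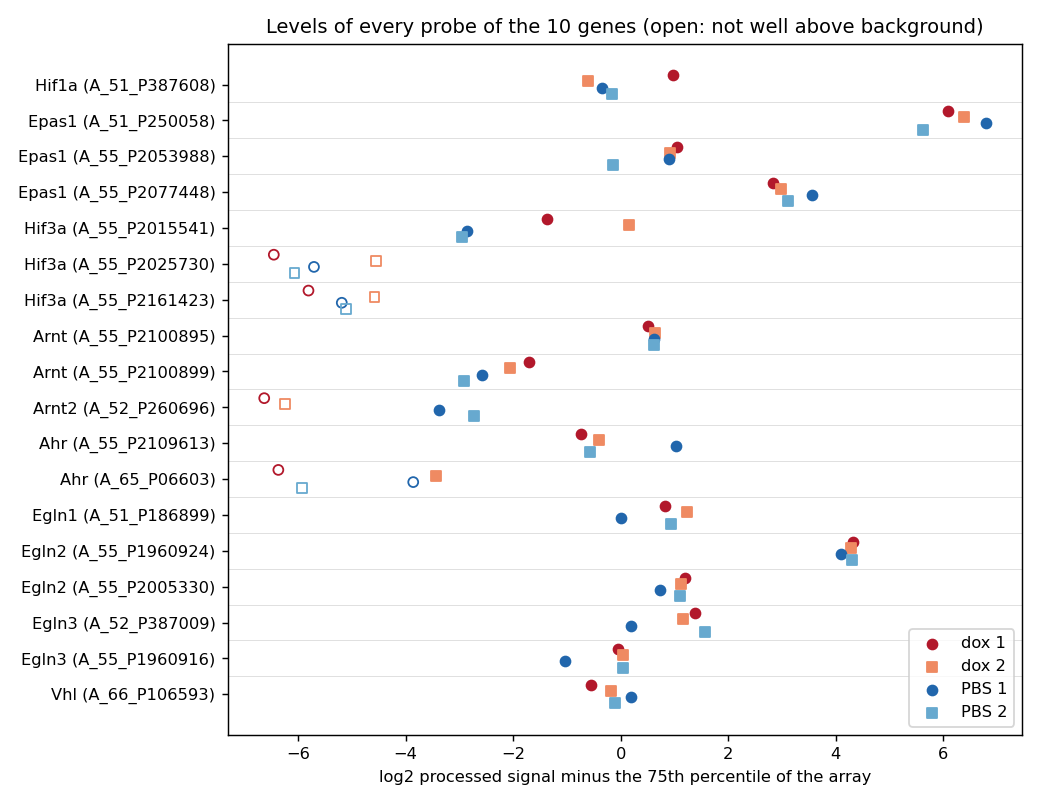
Level of each of the 18 probes on each array, as the log2 of the processed signal relative to the array's 75th percentile (horizontal axis). Circles and squares are arrays 1 and 2 of a group, red doxycycline and blue PBS, and open symbols mark arrays where the probe did not stand well above background. The Hif3a probe A_55_P2015541 lies higher on both doxycycline arrays, Arnt2 lies lower on both, and for several other genes the point apart from the rest is PBS array 1.

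After doxycycline the family did not move as a block. Of the 15 kept probes, 10 lay above PBS on average and 5 below, with a median difference of 0.24. Over all 20092 kept probes the median was -0.04 and 46.7% lay above PBS. Both doxycycline arrays exceeded both PBS arrays for 4 of the 15, where 15.3% of all kept probes did so, and lay below both for 3, where 19.4% did so. A difference beyond 1 in size was found for 2 of the 15, Hif3a and Arnt2, against 11.8% of all kept probes. That of Arnt2 used doxycycline values not well above background. Without PBS array 1 the median of the 15 was 0.01, against -0.09 over all kept probes, and 3 of the 15 lay on the other side of 0.

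At an adjusted p under 0.05 (limma, Benjamini-Hochberg over 20092 probes) 0 probes of the array were higher (0%) and 0 were lower (0%) after doxycycline, so none of the family's probes were either. At an unadjusted p under 0.05 the counts were 622 higher and 659 lower. With every probe kept regardless of signal, limma called 19 higher and 12 lower, and scaling to the array median gave 114 and 38.

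**Figure D2:**
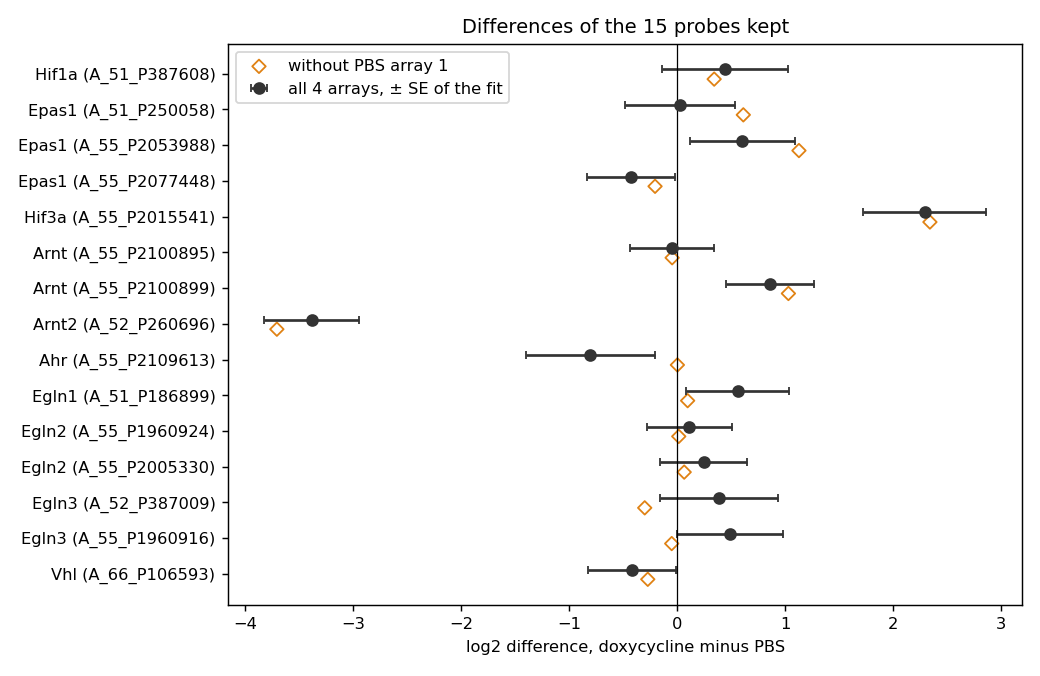
Difference of each of the 15 kept probes, doxycycline minus PBS on the log2 scale (horizontal axis), as filled circles with the SE of the fit (n = 2 per group). Open diamonds give the difference without PBS array 1. Hif3a at 2.29 and Arnt2 at -3.39 lie far from 0 with and without that array, whereas both Egln3 probes cross 0 when it is left out. The Arnt2 value uses doxycycline signals about equal to their error, so only a bound on its size is known.

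Hif3a had the highest difference among the alpha subunits and in the family. The gene encodes an alpha subunit of which short splice forms in mice restrain the others. The probe A_55_P2015541 read -1.37 and 0.15 on the doxycycline arrays, against -2.85 and -2.95 on the PBS arrays. Both doxycycline arrays lay above both PBS arrays, and they differed from each other by 1.52, much more than the PBS arrays did (0.10). The processed signals behind these levels were 96.0 ± 9.9 and 213 ± 21 on the doxycycline arrays, against 15.5 ± 2.7 and 22.1 ± 3.2 on the PBS arrays, where the error is the scanner software's own for the spot. The difference was 2.29 ± 0.57 (SE, 4.89-fold) and 2.34 without PBS array 1.

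The other Hif3a probes, A_55_P2025730 and A_55_P2161423, are assigned to the same transcript record and never stood well above background. Their signals were 2.8 to 8.2 on the doxycycline arrays and 2.2 to 4.9 on the PBS arrays, with errors of 2.1 to 3.1. The Hif3a result therefore rests on 1 of 3 probes. The difference of that probe was 0.92 with normexp background correction, 2.46 with quantile normalization and 2.64 with median scaling. It reached 3.05 without doxycycline array 1. As the groups did not overlap, leaving out 1 array could not change its sign.

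Hif1a, the alpha subunit best known for turning on glycolysis, read 0.98 and -0.61 on the doxycycline arrays, against -0.35 and -0.16 on the PBS arrays. Doxycycline array 1 was the high one and doxycycline array 2 the lowest of the 4, so the groups overlapped. The difference of 0.44 ± 0.58 (SE) was smaller than the gap of 1.58 between the doxycycline arrays. Leaving out PBS array 1 gave 0.34, doxycycline array 1 gave -0.35 and doxycycline array 2 gave 1.23.

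Epas1 encodes the alpha subunit HIF-2α, which is abundant in endothelial cells. Its 3 probes did not give 1 direction. The probe A_51_P250058 read 6.08 and 6.39 on the doxycycline arrays, against 6.80 and 5.62 on the PBS arrays, so the PBS arrays held both the highest and the lowest value (difference 0.02 ± 0.51). The probe A_55_P2053988 read 1.05 and 0.92 on the doxycycline arrays, against 0.90 and -0.14 on the PBS arrays, a difference of 0.60 ± 0.48. The probe A_55_P2077448 read 2.84 and 2.98 on the doxycycline arrays, against 3.56 and 3.11 on the PBS arrays, a difference of -0.43 ± 0.41. On all 3 PBS array 1 lay above PBS array 2, by 1.17, 1.05 and 0.45.

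Endothelial markers moved with Epas1 on PBS array 1. All 12 markers were well above background and all 12 were higher on PBS array 1 than on PBS array 2. Their summed signal was 112 and 146 on the doxycycline arrays, against 338 and 99.8 on the PBS arrays. Egfl7, at a level of 7.74 on PBS array 1, gave much of the sum there. The median difference of the 12 markers was 0.03 and, without PBS array 1, 0.64. Without that array the Epas1 probes differed by 0.61, 1.13 and -0.21. The part of endothelial RNA in the Epas1 values was not tested. In RNA of a whole preparation, fewer cells of a type and less RNA per cell cannot be told apart.

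**Figure D3:**
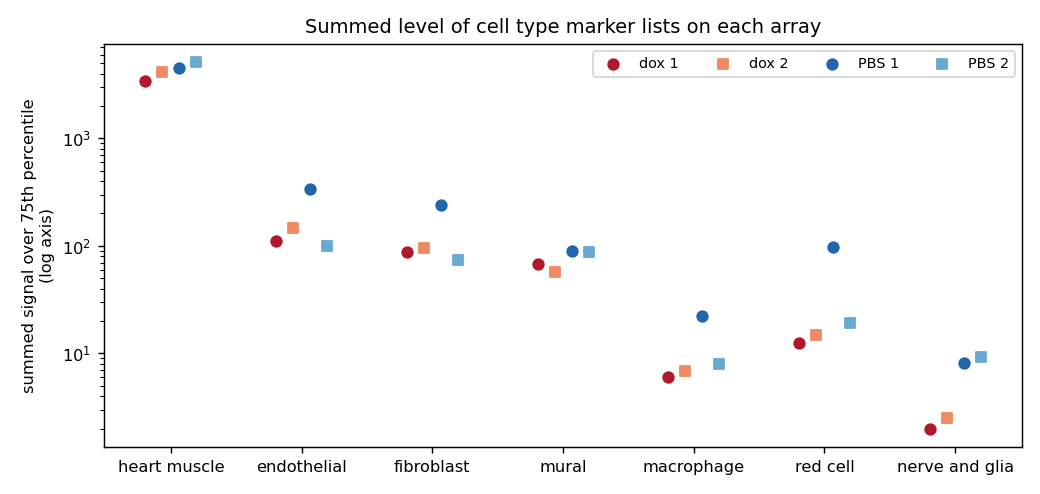
Summed signal of 7 cell type marker lists on each array, in multiples of the 75th percentile of the array (vertical log axis). Circles and squares are arrays 1 and 2, red doxycycline and blue PBS. PBS array 1 is the highest for endothelial (338), fibroblast (238), macrophage (22.1) and red cell (98.3) markers, and the nerve and glia list is lower on both doxycycline arrays (2.00 and 2.53) than on both PBS arrays (8.16 and 9.28).

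Arnt2, a partner subunit known mainly from neurons and the developing brain, had the lowest difference in the family. Its 1 probe read -6.63 and -6.25 on the doxycycline arrays, against -3.37 and -2.73 on the PBS arrays. It was well above background on both PBS arrays, where the processed signal was 10.8 ± 2.3 and 25.7 ± 3.4, whereas neither doxycycline array was, and there the signal of 2.51 ± 2.50 and 2.53 ± 2.53 was about equal to its error. The doxycycline values are thus only a bound. Raised to the lowest signal well above background, they put Arnt2 at least 2.26-fold lower in doxycycline than in PBS cells. The bound holds for this scaling only and leaves out the error of the PBS signals. Without that step the means differed by -3.39 ± 0.44 (SE), and by -3.71 without PBS array 1. This size and its SE rest on doxycycline signals about equal to their error. The Arnt2 difference was -0.86 with normexp background correction, -2.99 with quantile normalization and -3.04 with median scaling. As the groups did not overlap, leaving out 1 array could not change its sign. Even on the PBS arrays the signal was dim, at 4.65 and 7.49 times its own error.

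Nerve and glia markers were also lower on the doxycycline arrays. Of 13 listed, 8 were kept, and 7 of the 8 lay below PBS on average, where 6876 of all 12542 genes did so. For 4 of the 8 both doxycycline arrays lay below both PBS arrays, where 20.8% of all genes did so. The list median was -1.12, and -0.47 without PBS array 1. Other lists lay lower as well: both doxycycline arrays were below both PBS arrays for 7 of 12 fibroblast, 6 of 9 macrophage and 4 of 4 red cell markers. Their list medians without PBS array 1 were -1.28, -0.42 and -0.46. The neutrophil list had a median of 2.33, and 2.82 without PBS array 1. Both doxycycline arrays exceeded both PBS arrays for 3 of its 5 kept markers, where 14.5% of all genes did so, and 2 lay below PBS on average. Dbh, the enzyme that makes noradrenaline, gave much of the summed signal of the nerve and glia list. Without it the 7 others summed to 1.70 and 2.06 on the doxycycline arrays, against 4.93 and 2.60 on the PBS arrays. Th, the first enzyme of noradrenaline synthesis, differed by -0.69 ± 0.39, the peripheral neuron filament gene Prph by -1.56 ± 0.64 and S100b, a glial marker, by -2.12 ± 0.73, the last 2 by -0.73 and -1.14 without PBS array 1. Nefl, Nefm and Gfap did not stand well above background on any of the 4 arrays. The part of nerve RNA in the Arnt2 values was not tested.

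Arnt, the general partner of HIF alpha subunits and of the aryl hydrocarbon receptor, gave different values on its 2 probes. The probe A_55_P2100895 read 0.50 and 0.63 on the doxycycline arrays, against 0.61 and 0.61 on the PBS arrays, a difference of -0.05 ± 0.39, the same without PBS array 1, and the tightest agreement between arrays in the family. The probe A_55_P2100899 read -1.71 and -2.06 on the doxycycline arrays, against -2.58 and -2.92 on the PBS arrays. Both doxycycline arrays lay above both PBS arrays on this probe, with a difference of 0.86 ± 0.41 (SE, 1.82-fold) that was 1.03 without PBS array 1 and 0.03 with normexp background correction. Both probes carry the same transcript record, so which of them follows the main Arnt transcript is not known. The sign of the first changed in 4 of 12 alternatives.

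Ahr, the ligand-activated receptor for dioxin-like compounds and tryptophan products, read -0.74 and -0.41 on the doxycycline arrays, against 1.03 and -0.58 on the PBS arrays (probe A_55_P2109613). PBS array 1 was the high array, and the other 3 lay within a narrow band. The difference was -0.80 ± 0.60 (SE), and 0.00 without PBS array 1. The second probe, A_65_P06603, was well above background on doxycycline array 2 alone, with a signal of 17.8 ± 3.5, and was not kept.

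Among the oxygen sensors the array apart from the others was PBS array 1. Egln1, which encodes PHD2, the main HIF prolyl hydroxylase of most tissues, read 0.82 and 1.22 on the doxycycline arrays, against -0.003 and 0.93 on the PBS arrays. Doxycycline array 1 lay below PBS array 2, so the groups overlapped, and the difference of 0.56 ± 0.48 (SE) became 0.10 without PBS array 1. Egln2, which encodes PHD1, was steady: the probe A_55_P1960924 read 4.32 and 4.29 on the doxycycline arrays, against 4.09 and 4.29 on the PBS arrays, a difference of 0.11 ± 0.39 that was 0.01 without PBS array 1. Its second probe, A_55_P2005330, read 1.20 and 1.11 on the doxycycline arrays, against 0.73 and 1.09 on the PBS arrays, a difference of 0.24 ± 0.40 that was 0.06 without PBS array 1.

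Egln3, which encodes PHD3, is an enzyme whose RNA is strongly induced by HIF in many cell types. The probe A_52_P387009 read 1.37 and 1.17 on the doxycycline arrays, against 0.20 and 1.57 on the PBS arrays, so that PBS arrays again held both extremes. Its second probe, A_55_P1960916, read -0.06 and 0.04 on the doxycycline arrays, against -1.03 and 0.04 on the PBS arrays. The probes gave like differences, 0.39 ± 0.54 and 0.49 ± 0.49 (SE), and both changed side without PBS array 1, at -0.30 and -0.05. Of the family's 15 kept probes, 7 were lower on PBS array 1 than on PBS array 2, among them both Egln3 probes (by 1.37 and 1.08), Egln1 (by 0.93) and both Egln2 probes.

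Vhl, the subunit that recognises hydroxylated HIF alpha and carries it to the ubiquitin ligase, read -0.56 and -0.19 on the doxycycline arrays, against 0.20 and -0.10 on the PBS arrays. Both doxycycline arrays lay below both PBS arrays, by little. The difference was -0.42 ± 0.41 (SE), which is about its own error, and -0.27 without PBS array 1.

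**Figure D4:**
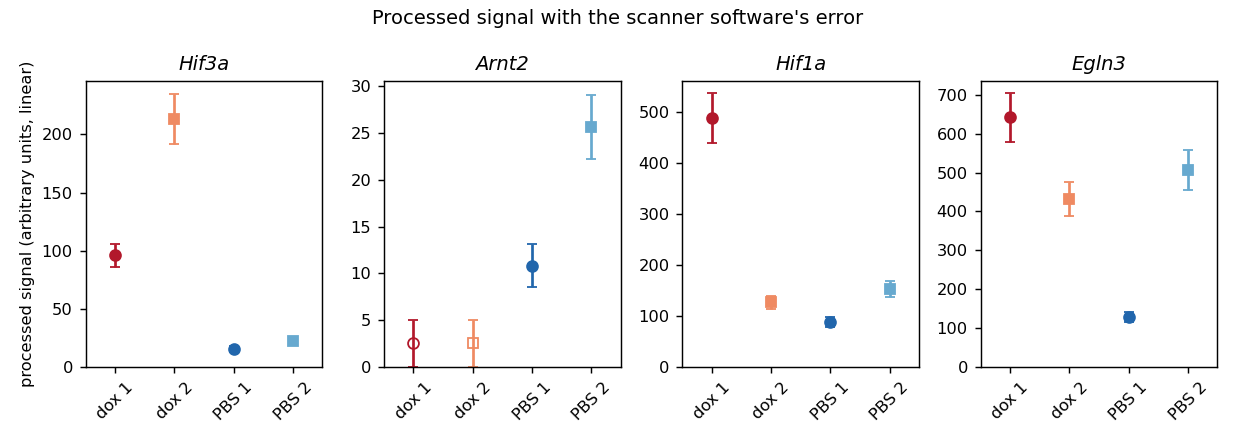
Processed signal of 4 probes on each array on a linear scale from 0, with the scanner software's error for the spot as bars. The signals are not scaled between arrays, whose 75th percentiles ranged from 112 to 248. Hif3a is high on both doxycycline arrays (96.0 and 213), Arnt2 is at its own error on both (open symbols), Hif1a is high on doxycycline array 1 alone (488), and Egln3 is low on PBS array 1 alone (129).

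Beside the family stand proteins that act on HIF alpha, such as the asparagine hydroxylase Hif1an, the ubiquitin ligase parts Eloc, Elob, Cul2 and Rbx1, and coactivators. All 18 genes of this list were kept, and 0 passed the test in either direction (limma, adjusted p under 0.05). Their median difference was 0.26, against -0.06 over the 12542 genes each represented by its brightest kept probe. Without PBS array 1 the list median was -0.04, against -0.11 over all genes. Both doxycycline arrays exceeded both PBS arrays for 6 of the 18, where 14.5% of all genes did so, and lay below both for 2, where 20.8% did so. Siah1a, a ubiquitin ligase that targets EGLN proteins, differed by 1.38 ± 0.41 (SE, limma adjusted p = 0.529) and was well above background on 3 arrays. Hsp90aa1, the chaperone that holds HIF alpha and Ahr, differed by 0.97 ± 0.40 (limma adjusted p = 0.771). The coactivator gene Ep300 read 0.89 and -2.66 on the doxycycline arrays, against -2.66 and -2.95 on the PBS arrays, so its difference of 1.92 ± 1.05 rested on doxycycline array 1. P4htm, a membrane-bound prolyl hydroxylase, differed by 0.60 and Cul2 by -0.53, and without PBS array 1 by 0.16 and -0.09.

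Glycolytic genes that HIF-1 is known to induce were close to PBS as a list. All 20 were kept and 0 passed in either direction (limma). The median difference was 0.17, with 16 of 20 above PBS on average against 45.2% of all genes. Without PBS array 1 it was -0.24, with 6 of 20 above, where the median over all genes was -0.11. Both doxycycline arrays exceeded both PBS arrays for 2 genes, against 14.5% of all genes, and lay below both for 2, against 20.8%. Aldoc, an aldolase isoform, read -0.97 and -1.59 on the doxycycline arrays, against -2.80 and -2.87 on the PBS arrays (difference 1.55 ± 0.42, limma adjusted p = 0.453). Pfkfb3, which makes the activator of phosphofructokinase, differed by 1.62 ± 0.81, but doxycycline array 2 (1.04) lay below PBS array 1 (1.24), without which the difference was 2.44. Its relative Pfkfb4 went the other way, at -0.90 ± 0.44. The lactate exporter gene Slc16a3 differed by 0.83, Pdk1, which restrains pyruvate dehydrogenase, by 0.68, and Eno1 by -0.33, the first 2 of these by 1.26 and 0.21 without PBS array 1.

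Other HIF-responsive genes spread widely in both directions. Of 42 listed, 37 were kept and 0 passed (limma). The median difference was 0.03, with 19 above PBS and 18 below, and -0.08 without PBS array 1. Both doxycycline arrays exceeded both PBS arrays for 6, against 14.5% of all genes, and lay below both for 10, against 20.8%. Bnip3, a mitochondrial receptor for mitophagy, read 8.22 and 8.03 on the doxycycline arrays, against 4.95 and 6.02 on the PBS arrays (difference 2.64 ± 0.49, 6.23-fold, limma adjusted p = 0.269). The haem-degrading Hmox1 differed by 2.66 ± 0.51 (limma adjusted p = 0.275). Ddit4, an inhibitor of mTORC1, differed by 1.56 ± 0.49. On the other side stood the peptide gene Apln at -4.25 ± 0.43 (limma adjusted p = 0.193), well above background on 1 of 2 doxycycline arrays, and the vessel-destabilising ligand gene Angpt2 at -2.04 ± 0.57, or -1.29 without PBS array 1. Car9, Car12, Epo and Mxi1 did not stand well above background on any of the 4 arrays.

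**Figure D5:**
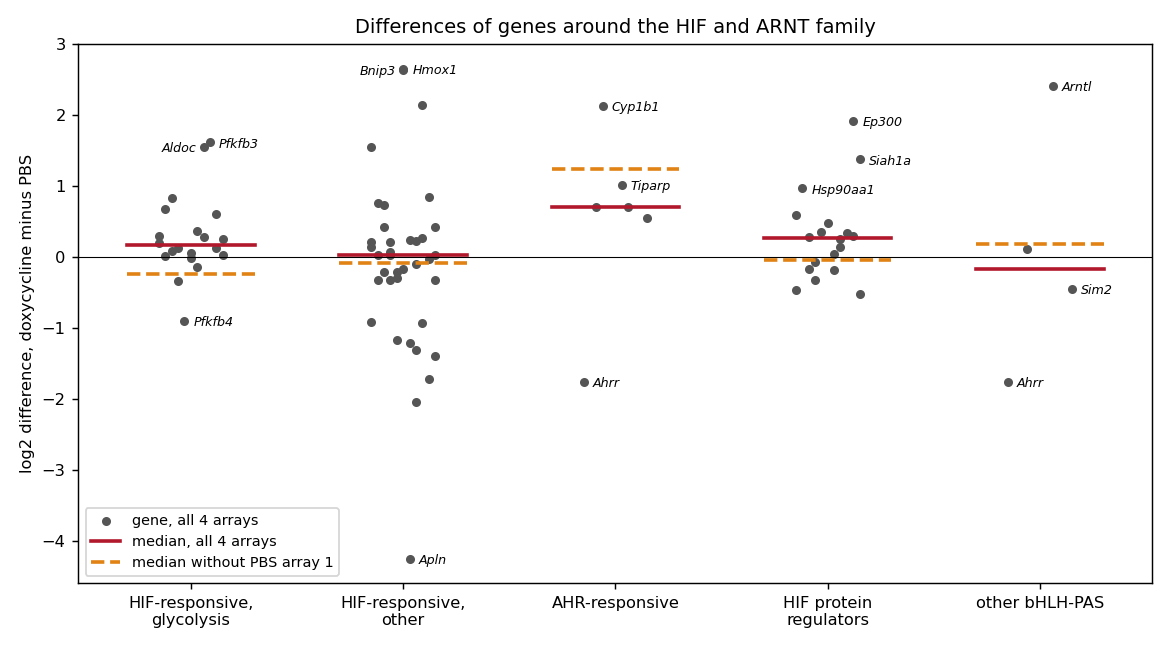
Difference of each kept gene in 5 lists around the family, doxycycline minus PBS on the log2 scale (vertical axis), 1 point per gene by its brightest kept probe. Solid red bars are list medians over all 4 arrays, and dashed orange bars are medians without PBS array 1. The glycolytic list sits near 0 (0.17), the other HIF-responsive genes run from Apln at -4.25 to Hmox1 at 2.66, and the Ahr-responsive list has a median of 0.71.

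Of 11 genes that the aryl hydrocarbon receptor is known to induce, 6 were kept and 0 passed (limma). On average 5 of the 6 lay above PBS, against 45.2% of all genes over the same 4 arrays, and 4 of the 6 did so without PBS array 1. The median difference was 0.71, and 0.0056 with no filter on dim probes. Without PBS array 1 it was 1.24, where the median over all genes was -0.11. Cyp1b1, a cytochrome P450 that oxidises steroids and aromatic compounds, read -0.17 and -0.44 on the doxycycline arrays, against -1.96 and -2.92 on the PBS arrays (difference 2.13 ± 0.47, 4.38-fold, limma adjusted p = 0.341). Tiparp, an ADP-ribosyltransferase that represses Ahr, differed by 1.02 ± 0.53, Aldh3a1 by 0.70, Ugt1a6b by 0.71 and Nqo1, a quinone reductase, by 0.55. Without PBS array 1 the last 3 differed by 1.23, 1.32 and -0.20. Ugt1a6b shares sequence with its neighbour isoforms, so its probe may read more than 1 of them. Ahrr, the PAS protein that competes with Ahr for Arnt, read -3.19 and -2.25 on the doxycycline arrays, against -1.70 and -0.23 on the PBS arrays (difference -1.76 ± 0.62, limma adjusted p = 0.665). Cyp1a1, the best known target in mammals, Cyp1a2, Ugt1a6a and Lrat did not stand well above background on any of the 4 arrays.

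Of 10 other PAS factors, 4 were kept and 0 passed (limma), with a median difference of -0.16 that was 0.18 without PBS array 1. Arntl, the clock subunit named for its likeness to Arnt, read -0.51 and -0.70 on the doxycycline arrays, against -3.46 and -2.57 on the PBS arrays (difference 2.41 ± 0.46, limma adjusted p = 0.275), and was well above background on 3 arrays. Its partner Clock differed by 0.12 ± 0.40 and Sim2 by -0.44 ± 0.60, and without PBS array 1 by 0.05 and 0.32. Ahrr, described above, was the fourth.

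Among the genes whose pattern over the 4 arrays lay closest to Hif3a, by Euclidean distance between levels centred on their own mean, were Srarp (0.67) and Xdh (0.69), which makes uric acid. Neither PBS array detected Srarp well above background, whereas all 4 did so for Xdh, which read 1.74 and 2.70 on the doxycycline arrays, against 0.45 and 0.51 on the PBS arrays. Closest to Arnt2 were Dbh (0.42), Slc35f1 (0.53) and the epithelial transcription factor gene Grhl2 (0.59). Slc35f1 and Grhl2, like Arnt2, stood well above background on the PBS arrays alone, so the likeness rests partly on values at background. With 4 arrays these distances only describe the arrays.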

How the data were processed

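RNA of 4 cardiomyocyte preparations was measured on 4 Agilent 1-colour arrays of 1 slide, grouped by sample title. Spot intensity was taken by the authors from Cy3 scans with Feature Extraction 10.7.1.1, per the file headers. The deposited processed intensity is linear, background-subtracted and detrended within each array, and not scaled between arrays. Other deposited columns are the software's flags and error for each spot.

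Probes were named by unversioned accession through a RefSeq table (GRCm38.p6), which named 27508 of 39429 probes. The log2 of the processed intensity was centred on the 75th percentile of an array's non-control spots, and the spots of a probe other than flagged outliers were averaged. Probes well above background on at least 2 arrays (at least 0.5 of their spots) were kept, and 35 probes without an unflagged spot on some array were dropped. Doxycycline was compared with PBS using limma 3.58.1 (lmFit, eBayes) in R 4.3.3, two-sided, with Benjamini-Hochberg adjustment over all kept probes, checked on simulated data. The p-values reflect only how these samples varied, which may be technical, and the number of arrays limits the precision. For a bound, a dim group's value on each array was raised to the lowest signal well above background where it lay under it. Array position on the slide follows the groups, so position and treatment cannot be told apart.

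The members and lists were chosen with earlier results of these data known. Named genes are every member, up to 6 genes per list with the smallest p, and 3 genes with the nearest pattern for the highest and lowest member; some items so chosen are not reported here. Alternatives were normexp background correction on the median spot signal (offset 50), quantile and median scaling, other filters, 1 value per gene, other variance models, the replicate number as a block and each array left out. Figures used matplotlib 3.10.9.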

Additional observations from a re-analysis of the deposited data

How the results depend on the processing

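The count of 0 probes passing in each direction held under normexp background correction, quantile normalization, the filter on all 4 arrays, both ways of taking 1 value per gene, a variance trend and a robust variance. Median scaling gave 114 higher and 38 lower, having moved the median difference of all probes to 0.30 from -0.04, and no filter on dim probes gave 19 and 12. Leaving out an array gave 0 to 56 higher and 0 to 36 lower, the highest without doxycycline array 2. An unadjusted p under 0.05 with a log2 difference of at least 1 gave 615 and 647. The replicate number as a block gave 206 higher and 158 lower. Deviations of arrays with the same number were only weakly related, and negatively (r = -0.13 across probes), so the numbers are not taken to pair them. Crossed pairs, added after seeing the data, gave 35 and 40. The cause of these changes was not tested.

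The median over the family's genes was 0.07, and 0.22 with normexp, 0.42 with median scaling and 0.29 as means of probes. The median of the other PAS factors was -0.16, and 0.18 with median scaling, -0.44 with no filter, -0.44 with the filter on all 4 arrays and -0.42 to 0.18 over single arrays left out. That of the HIF regulators was 0.26, and 0.61 with median scaling and -0.039 to 0.51 over arrays left out. That of the Ahr-responsive genes was 0.71, and 1.05 with median scaling, 0.0056 with no filter, 0.98 as means of probes and 0.48 to 1.24 over arrays left out. The medians of both HIF-responsive lists moved by less than the spread between arrays in each alternative run, but both changed sign. The glycolytic median of 0.17 ran from -0.24 without PBS array 1 to 0.52 without PBS array 2. That of the other HIF-responsive genes, 0.03, ran from -0.18 without doxycycline array 2 to 0.38 with median scaling. Of the 15 family probes, 3 changed sign without PBS array 1, 2 without doxycycline array 1 and 2 with quantile normalization. Hif3a kept its sign in the 12 alternatives run and Arnt2 in 11, its probe being dropped by the filter on all 4 arrays. Many of these could not change the sign. Filters that kept the probe, 1 value per gene and the block left both differences as they were. Leaving out 1 array cannot reverse groups that do not overlap. Only normexp, quantile and median scaling could have changed it. Dim probes limit what the arrays show, since the Arnt2 signal on doxycycline arrays was about equal to its error.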
